A study of Homo sapiens with 6 samples.

Results

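Fatty acid uptake, storage and oxidation were followed through 10 genes in spheroids and monolayers of NCI-H226, an established human mesothelioma cell line. The genes were PLIN2, CD36, PNPLA2, CPT1A, ACSL1, ACSL3, ACSL4, FABP5, DGAT1 and DGAT2, and their probe sets were those that the array's annotation gives to 1 of these genes alone. This gave 22 probe sets for 9 genes out of 54613 probe sets tested, which read 19775 genes. The annotation used here named no probe set for ACSL3, a long-chain acyl-CoA synthetase, so it has no value below. The other 9 genes had between 1 and 5 probe sets each, and 7 of them had more than 1.

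A cell takes up fatty acids with the help of surface proteins such as CD36 and carries them through the cytosol on small binding proteins such as FABP5. The ACSL enzymes join the fatty acid to coenzyme A, which commits it to use. DGAT enzymes then build it into triglyceride, which is kept in lipid droplets coated by perilipins such as PLIN2 and is released again by the lipase PNPLA2. For oxidation the acyl chain is instead handed to carnitine by CPT1A at the outer mitochondrial membrane, the step that controls entry into the mitochondrion. Mesothelial cells are flat lining cells, and malignant mesothelioma arises from them.

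Total RNA came from 3 adherent monolayer cultures and 3 spheroid cultures of the same line, labelled as biological replicates and each hybridized to 1 Affymetrix Human Genome U133 Plus 2.0 array. The labels name no genetic change and no drug in either group. Spheroids were formed without matrix, 10000 cells to a well coated with poly-HEMA, a polymer to which cells do not attach, and were kept for 24 hours after centrifugation. A spheroid is a model of 1 cell line that holds no blood vessels, stroma or immune cells, and fewer cells of a state and less RNA per cell cannot be told apart in RNA pooled from a culture.

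The deposited values are MAS5 signals on a linear scale, which is the authors' intensity per probe set with every array scaled to a trimmed mean of 150.0. The median signal ran from 14.6 to 14.7 on the monolayer arrays and from 15.2 to 18.0 on the spheroid arrays, so log2 signals were centred on each array's median. Differences are spheroid minus monolayer on that scale, and a probe set was called when limma's Benjamini-Hochberg adjusted p over all 54613 probe sets was under 0.05. Over all probe sets 1523 were called higher and 3621 lower in spheroids, and 2561 and 2863 on the values as deposited. The median difference over all probe sets was -0.07 with centring and 0.07 without it. RNA integrity was read from ACTB, whose log2 ratio of 3' to 5' signal averaged 0.13 ± 0.016 on monolayer arrays and 0.23 ± 0.074 on spheroid arrays (SD, n = 3 each, exact two-sided permutation p = 0.1, which is the minimum for these numbers, and 0.3 after adjustment over 6 controls). The same ratio of GAPDH averaged -0.16 ± 0.028 and -0.15 ± 0.019 (SD, n = 3 each, exact two-sided permutation p = 0.6). Detection calls were not used here, and the 20th percentile of all signals, 3.11, serves below to mark dim values. Of 9 mesothelial markers 1, podoplanin (PDPN), was called higher in spheroids (11.1%, against 3.89% of all genes), by 1.10. None was called lower (against 9.2% of all genes), and 4 had an unadjusted p under 0.05 by limma. KRT19 averaged 4890 ± 319.7 in monolayers and 5500 ± 278 in spheroids, and the mesothelial transcription factor WT1 1548 ± 262 and 1886 ± 108 (SD, n = 3 each). Calretinin (CALB2), a defining mesothelial marker, gave 1582, 163 and 83.6 in monolayers and 2238, 1317 and 1765 in spheroids (difference 2.49, adjusted p = 0.125 by limma). THBD had a difference of -1.24 and UPK1B of -0.80, and neither passed. Monolayer 1 stood apart from the other monolayers at CALB2 and at the keratin KRT5 (1845, against 130 and 79.3). Spheroid 1 likewise stood apart from the other spheroids at KRT5 (910.5, against 267 and 290). Without monolayer 1 the calls described below for FABP5, CPT1A and CD36 held, and both ACSL4 calls ended (adjusted p = 0.0588 and 0.0641 by limma).

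CPT1A, ACSL4 and CD36 are shown by the sequence at their start sites, because their probe sets included called ones and RefSeq windows were at hand. Each window holds 250 bases before and 50 bases after a RefSeq start (build GRCh38.p14) and is written 5′ to 3′ along the gene. CPT1A lies at chr11:68844228-68844527, minus strand, ACSL4 at chrX:109733208-109733507, minus strand, and the most upstream of 6 CD36 starts at chr7:80601957-80602256, plus strand. Capitals mark every match, on either strand, to 7 short motifs named after them.
CPT1A: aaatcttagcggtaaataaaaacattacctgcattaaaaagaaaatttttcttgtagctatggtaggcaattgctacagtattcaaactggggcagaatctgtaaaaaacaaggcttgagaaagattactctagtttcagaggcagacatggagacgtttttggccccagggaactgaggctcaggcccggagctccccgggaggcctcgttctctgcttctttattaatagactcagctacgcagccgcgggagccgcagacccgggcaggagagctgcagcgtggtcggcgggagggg
ACSL4: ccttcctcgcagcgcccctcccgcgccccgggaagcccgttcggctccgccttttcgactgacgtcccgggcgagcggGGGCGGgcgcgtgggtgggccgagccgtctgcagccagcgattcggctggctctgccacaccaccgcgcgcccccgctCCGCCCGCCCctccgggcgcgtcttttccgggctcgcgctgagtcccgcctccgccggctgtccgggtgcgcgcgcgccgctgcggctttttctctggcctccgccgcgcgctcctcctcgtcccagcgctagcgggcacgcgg
CD36: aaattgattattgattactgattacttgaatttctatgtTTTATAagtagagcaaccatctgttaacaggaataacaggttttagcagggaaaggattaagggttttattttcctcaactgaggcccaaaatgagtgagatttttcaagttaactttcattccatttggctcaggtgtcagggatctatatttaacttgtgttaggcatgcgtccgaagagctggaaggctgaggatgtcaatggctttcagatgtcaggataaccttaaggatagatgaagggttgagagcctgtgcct
The motifs were the PPAR direct repeat AGGTCANAGGTCA, its single site AGGTCA, the hypoxia response core ACGTG, the E-box CACGTG, which contains that core, the CCAAT box, the GC box GGGCGG and the TATA box TATAAA. The ACSL4 window is rich in G and C (77.7%) and held 3 GC boxes, 2 of which overlap, and the GC box occurred in 45.0% of all 35116 RefSeq windows. The CPT1A window (50% G and C) held none of the 7 motifs, and the first CD36 window (38.7% G and C) held only a TATA box, found in 11.5% of all windows. Of 16 windows that belong to 7 of the 10 genes, none held the PPAR direct repeat, which 0.0228% of all windows hold. The hypoxia core was present in 1 of the 16, that of PLIN2, and in 21.4% of all windows. These are matches of letters and no evidence of binding.

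Spheroids had lower signals of the fatty acid binder FABP5, at its only probe set, and of the mitochondrial entry enzyme CPT1A, at its brightest. ACSL4 was called in both directions, and CD36 was called higher. Each of these calls rested on a single probe set. FABP5 was 3.46-fold lower in spheroids and CPT1A 1.99-fold lower at its brightest probe set. CPT1A lost its call when read as the median over its 4 probe sets. The brightest ACSL4 probe set was 1.39-fold higher, and another, dim in spheroids, was lower. One of 5 CD36 probe sets was higher, from monolayer signals too dim for a fold. The storage genes PLIN2, DGAT1 and DGAT2, the lipase PNPLA2 and the synthetase ACSL1 did not pass.
Of the 22 probe sets 2 were called higher (9.09%, against 2.79% of all probe sets) and 3 lower (13.6%, against 6.63%), and 17 did not pass. When a gene was represented only by its brightest probe set, the one with the highest mean over all 6 arrays, 1 of 9 genes was higher (11.1%, against 3.89% of all genes) and 2 were lower (22.2%, against 9.2%). When a gene was read as the median over its probe sets, 0 of 9 genes were higher (against 3.28% of all genes) and 2 were lower (22.2%, against 8.2%) by limma. ACSL4 was then lower in place of higher, and CPT1A did not pass. The deposited signals of the groups did not overlap at 9 of the 22 probe sets (40.9%, against 29.2% of all probe sets). The median difference was -0.25 over the 22 probe sets, beside -0.07 over all, and 0.05 over the 9 genes, beside -0.06 over all genes.

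**Figure D1:**
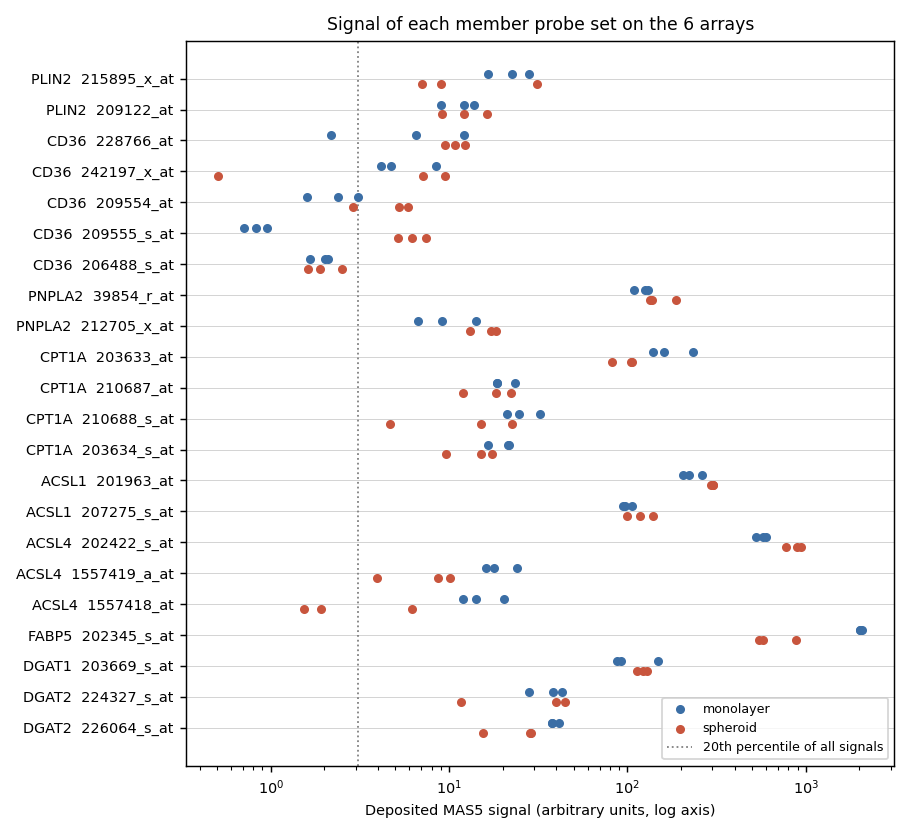
Deposited MAS5 signal (log axis, arbitrary units) of the 22 probe sets on each of the 3 monolayer arrays (blue) and 3 spheroid arrays (orange), with the 20th percentile of all signals (3.11) as a dotted line. FABP5 is bright and its groups are apart (2018 to 2072 against 543 to 880), while the CD36 probe sets all lie at 12.4 or below.

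**Figure D2:**
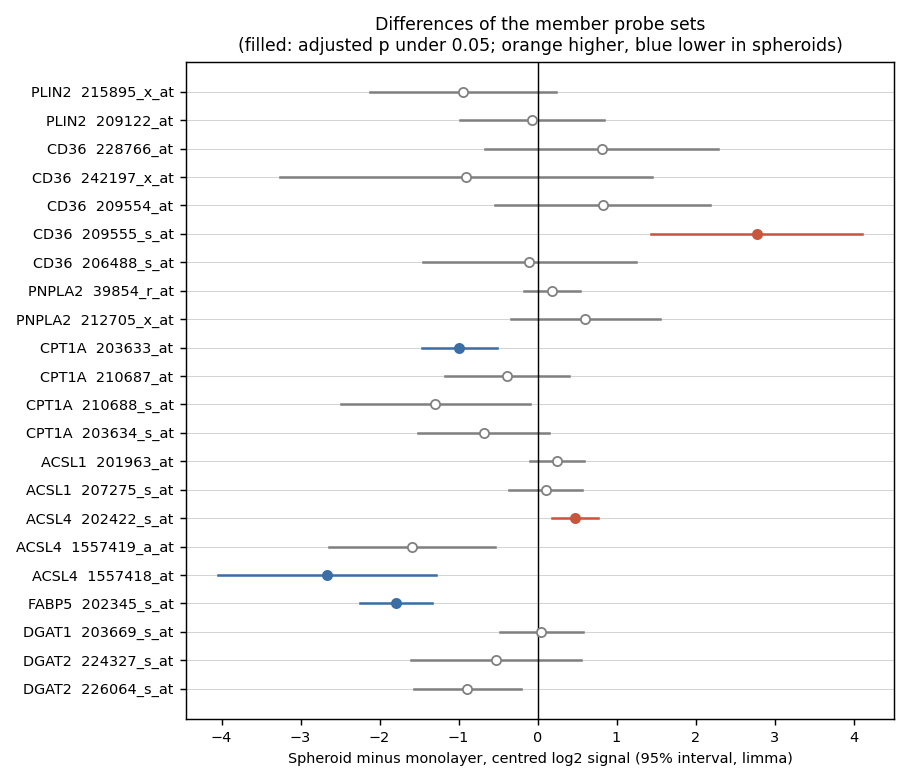
Difference of centred log2 signal, spheroid minus monolayer, with its 95% interval from limma for each of the 22 probe sets, n = 3 arrays per group. Filled points passed at an adjusted p under 0.05: CD36 209555_s_at (2.77) and ACSL4 202422_s_at (0.47) above 0, and FABP5 (-1.79), CPT1A 203633_at (-0.99) and ACSL4 1557418_at (-2.66) below it.

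Among the genes of uptake and transport in the cytosol, FABP5 carried the clearest difference. FABP5, also called epidermal fatty acid binding protein, shuttles fatty acids to enzymes and to nuclear receptors. Its probe set 202345_s_at gave signals of 2072, 2025 and 2018 on the monolayer arrays and 880, 575 and 543 on the spheroid arrays. The monolayers were nearly equal, and even the highest spheroid array stayed below every monolayer array. The difference was -1.79 on the log2 scale (standard error 0.20, 95% interval -2.25 to -1.34, adjusted p = 0.00128 by limma). The call held without each of the 6 arrays in turn (adjusted p from 0.00126 to 0.0112 by limma), with differences from -2.04 to -1.63. It ended in limma without the mean-variance trend (adjusted p = 0.0538) and in the methods' t-test after adjustment (adjusted p = 0.0625). RefSeq lists 15 pseudogenes named after FABP5, and whether their transcripts reach this probe set was not tested.

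CD36, also known as fatty acid translocase, is a scavenger receptor that brings long-chain fatty acids and oxidized lipoprotein into the cell. Its probe set 209555_s_at gave signals of 0.829, 0.959 and 0.706 in monolayers and 6.23, 5.20 and 7.45 in spheroids. All 3 spheroid arrays were above all 3 monolayer arrays, and all 3 monolayer values were under the 20th percentile. The difference was 2.77 (standard error 0.59, 95% interval 1.43 to 4.11, adjusted p = 0.0204 by limma). With signals under the 20th percentile raised to it, the difference was 0.86 and did not pass (adjusted p = 0.0839 by limma). The call also ended without monolayer 2, monolayer 3, spheroid 1 or spheroid 3 (adjusted p = 0.0586, 0.0722, 0.0607 and 0.0730 by limma). The study had itself selected this probe set on these arrays, so its call is not independent evidence. The probe set was the only one of the 22 that passed limma without the trend and the methods' t-test with adjustment.
The 4 other CD36 probe sets did not pass, and their signals overlapped between the groups. The one of highest mean level, 228766_at, gave 12.2, 6.55 and 2.17 in monolayers and 9.48, 12.4 and 10.8 in spheroids, a difference of 0.81 with a 95% interval from -0.66 to 2.28. The monolayer arrays alone spanned the values of 2 of the 3 spheroids. The remaining 3 had differences of 0.82 (209554_at), -0.10 (206488_s_at) and -0.90 (242197_x_at), with 95% intervals that all included 0.

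Among the enzymes that activate fatty acids, ACSL4 had 1 probe set called higher and 1 called lower, and ACSL1 did not pass. ACSL4 prefers arachidonic acid and other polyunsaturated chains and supplies the phospholipids whose peroxidation drives ferroptosis, a form of cell death. Its bright probe set 202422_s_at gave 572, 526 and 598 in monolayers and 770, 944 and 895 in spheroids. The groups did not overlap, with the lowest spheroid array above the highest monolayer array. The difference was 0.47 (standard error 0.13, 95% interval 0.19 to 0.76, adjusted p = 0.0498 by limma), just under the threshold. The call ended without each one of the 6 arrays (adjusted p from 0.0588 to 0.204 by limma), with the replicate block (adjusted p = 0.0536), without the trend (adjusted p = 0.237) and in the methods' t-test (adjusted p = 0.0971).
The other ACSL4 probe sets were dimmer and had negative differences. Probe set 1557418_at gave 20.2, 12.0 and 14.1 in monolayers and 1.53, 6.16 and 1.92 in spheroids, again without overlap. Spheroids 1 and 3 were under the 20th percentile. The difference was -2.66 (standard error 0.61, adjusted p = 0.0271 by limma), and -2.09 with signals under the 20th percentile raised to it (adjusted p = 0.02002 by limma). It did not pass without the trend (adjusted p = 0.0758), in the methods' t-test (adjusted p = 0.121) or without any single array other than spheroid 2 (adjusted p from 0.0641 to 0.0843 by limma). Probe set 1557419_a_at gave 18.0, 24.1 and 16.04 in monolayers and 10.1, 8.72 and 3.94 in spheroids, also without overlap, and did not pass (difference -1.58, standard error 0.46, adjusted p = 0.0686 by limma). With ACSL4 read as the median over its 3 probe sets it was lower in spheroids (-1.64, adjusted p = 0.0421 by limma). On each array that median fell on a dim probe set, because 202422_s_at was far brighter than the others. The annotation used here does not give which transcripts the dim probe sets read.
ACSL1, the main synthetase of fat and muscle cells, gave 261, 222 and 205 in monolayers and 302, 294 and 301 in spheroids at 201963_at. The spheroids were close together and above the monolayers. The centred difference was 0.25 with a 95% interval from -0.10 to 0.59 (adjusted p = 0.402 by limma). On the values as deposited it was 0.39 and did not pass either (adjusted p = 0.0954 by limma). Its other probe set, 207275_s_at, had overlapping signals and a difference of 0.10 (95% interval -0.36 to 0.56).

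Of the genes followed here, those that build and coat lipid droplets, DGAT1, DGAT2 and PLIN2, did not pass at any probe set. DGAT1 and DGAT2 both attach the last acyl chain of triglyceride, although they belong to unrelated protein families. DGAT1 gave 149, 92.1 and 87.2 in monolayers and 123, 114 and 128 in spheroids, and the spheroids fell inside the range of the monolayers. The difference was 0.05 with a 95% interval from -0.48 to 0.58. DGAT2 at 226064_s_at gave 37.9, 37.8 and 41.4 in monolayers and 15.4, 28.3 and 28.9 in spheroids. Here the groups did not overlap, and the difference of -0.89 (standard error 0.30, 95% interval -1.56 to -0.21) did not pass (adjusted p = 0.107 by limma). It passed when only probe sets above the median level were tested (adjusted p = 0.0487 by limma). The other DGAT2 probe set, 224327_s_at, gave 38.1, 28.0 and 43.2 in monolayers and 11.7, 39.8 and 44.9 in spheroids. Spheroid 1 stood apart there, and without it the difference of -0.52 became 0.06.
PLIN2, also called adipophilin, coats droplets in cells outside fat tissue. Its probe set 209122_at gave 9.03, 13.9 and 12.1 in monolayers and 9.09, 16.3 and 12.1 in spheroids, nearly the same values in both groups. The difference was -0.07 with a 95% interval from -0.98 to 0.85. At 215895_x_at the signals were 22.4, 16.5 and 28.1 in monolayers and 7.08, 31.2 and 8.99 in spheroids. Spheroids 1 and 3 were below all monolayers and spheroid 2 above them, and the difference of -0.94 did not pass (95% interval -2.12 to 0.24, adjusted p = 0.341 by limma).

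PNPLA2, or adipose triglyceride lipase, releases the first fatty acid from stored triglyceride. At 39854_r_at it gave 108, 125 and 130 in monolayers and 138, 188 and 134 in spheroids. Every spheroid array was above every monolayer array as deposited, and the centred difference was 0.18 (95% interval -0.17 to 0.53, adjusted p = 0.560 by limma). At 212705_x_at the signals overlapped and the difference was 0.61 (95% interval -0.34 to 1.55).

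CPT1A, the liver-type carnitine palmitoyltransferase, was lower in spheroids at 1 of its 4 probe sets. Its brightest probe set, 203633_at, gave 233, 140 and 161 in monolayers and 104, 106 and 82.0 in spheroids. All spheroid arrays lay below all monolayer arrays. The difference was -0.99 (standard error 0.21, 95% interval -1.46 to -0.52, adjusted p = 0.0195 by limma). The call ended without monolayer 3, spheroid 2 or spheroid 3 (adjusted p = 0.0541, 0.0753 and 0.0795 by limma), without the trend (adjusted p = 0.124) and in the methods' t-test (adjusted p = 0.137). With CPT1A read as the median over its 4 probe sets the difference was -0.56 and did not pass (standard error 0.28, adjusted p = 0.264 by limma).
The 3 dimmer CPT1A probe sets also had negative differences, and none passed. They were -1.29 at 210688_s_at (standard error 0.53, adjusted p = 0.184 by limma), -0.68 at 203634_s_at and -0.39 at 210687_at. Their signals overlapped between the groups, and at 210688_s_at spheroid 3 was far below the other arrays, at 4.64 where they ran from 15.1 to 32.5. Without spheroid 3 the difference there was -0.68, and that at 210687_at was -0.18.

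**Figure D3:**
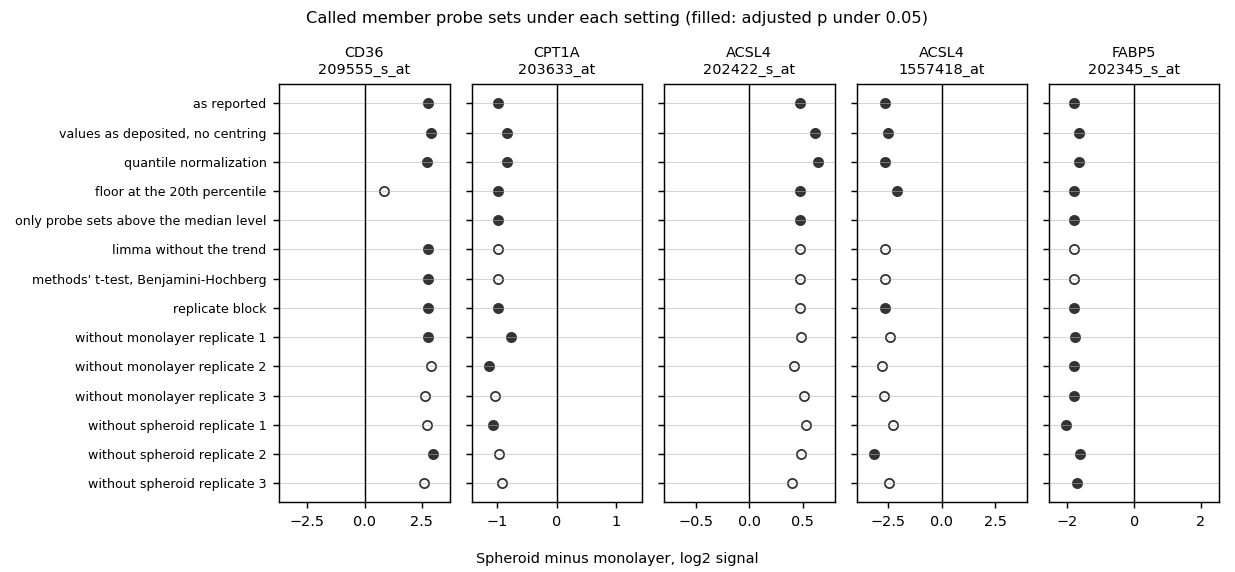
Log2 difference, spheroid minus monolayer, of the 5 called probe sets under each processing setting, 1 panel per probe set with its own horizontal scale. Filled points had an adjusted p under 0.05. FABP5 stays filled without any single array, ACSL4 202422_s_at is open without each of them, and raising dim signals brings CD36 from 2.77 to 0.86.

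The wider pathway was read through 6 lists of other genes, in which 110 of 120 genes had a probe set of their own, each read by its brightest. Of these 7 were higher in spheroids (6.36%), 8 were lower (7.27%) and 95 did not pass limma, where 3.89% of all genes were higher and 9.2% lower. Their median difference was 0.02. On the values as deposited 12 were higher and 6 lower, and quantile normalization gave the same counts. Limma without the trend called 0 of them (19 at an unadjusted p under 0.05), and the methods' t-test called 3 with adjustment and 20 without.
Of 19 droplet coat and lipolysis genes, 4 were higher (21.1%, against 3.89% of all genes) and 1 lower (5.26%, against 9.2%). Their median difference was 0.08. HILPDA, a hypoxia-inducible droplet protein that inhibits PNPLA2, rose from 141 ± 15.8 to 448 ± 214 (SD, n = 3 each, difference 1.41, standard error 0.31, adjusted p = 0.0230 by limma). HSD17B11, a droplet-bound dehydrogenase, rose from 100.02 ± 31.2 to 273 ± 25.2 (difference 1.36). SPART, or spartin, which takes part in droplet turnover, rose from 474 ± 68.2 to 863 ± 75.1 (difference 0.73). ABHD5, the coactivator of PNPLA2, fell from 139.1 ± 20.1 to 95.3 ± 14.7 (difference -0.69, adjusted p = 0.0327 by limma), and it did not pass as deposited (adjusted p = 0.0973). The lipase relative PNPLA3, named because it completes the count of 4, rose from 18.2 ± 2.61 to 42.0 ± 1.05 (difference 1.08).
Of 16 genes of triglyceride and sterol ester synthesis, none was higher (against 3.89% of all genes) and 2 were lower (12.5%, against 9.2%). Their median difference was -0.14, and 0.0017 as deposited. AGPAT5, an acyltransferase that makes phosphatidic acid, fell from 1072 ± 130.4 to 557 ± 107 (SD, n = 3 each, difference -1.10, standard error 0.14, adjusted p = 0.00218 by limma). SOAT2, which esterifies cholesterol, fell from 95.8 ± 7.52 to 52.4 ± 19.4 (difference -1.08) and did not pass as deposited (adjusted p = 0.0723 by limma).
Of 21 genes of uptake, binding and activation, 1 was higher (4.76%, against 3.89% of all genes) and 1 lower (4.76%, against 9.2%). SLC27A1, a fatty acid transport protein of the plasma membrane, rose from 52.8 ± 8.07 to 140.6 ± 22.2 (SD, n = 3 each, difference 1.27, standard error 0.21, adjusted p = 0.00614 by limma). ACOT7, a thioesterase that splits acyl-CoA and so works against the ACSL enzymes, fell from 1299 ± 103 to 746 ± 67.1 (difference -0.95, adjusted p = 0.00280 by limma).

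Among the other genes of oxidation, the balance of the called directions depended on the scaling. Of 24 genes of the carnitine shuttle and of mitochondrial oxidation, none was higher and 2 were lower (8.33%, against 9.2% of all genes). Their median difference was -0.04. HADH, the hydroxyacyl-CoA dehydrogenase of shorter chains, fell from 780 ± 29.9 to 489 ± 39.2 (SD, n = 3 each, difference -0.82, standard error 0.13, adjusted p = 0.00596 by limma). ACAD9, an acyl-CoA dehydrogenase best known for the assembly of respiratory complex I, fell from 466 ± 20.1 to 337 ± 15.6 (difference -0.61). CPT2, the partner of CPT1A on the inner membrane, had a difference of 0.54 and did not pass (adjusted p = 0.120 by limma). Of 13 peroxisomal genes none was higher and 2 were lower (15.4%, against 9.2% of all genes). They were HACL1 (difference -0.71), a lyase of alpha-oxidation, and ABCD3 (difference -0.54), an importer of acyl-CoA into the peroxisome. On the values as deposited and after quantile normalization these 4 calls remained, and 2 mitochondrial genes (CPT2 and HADHB) and 2 peroxisomal genes (HSD17B4 and PHYH) were called higher.
Of 17 regulators 2 were higher (11.8%, against 3.89% of all genes) and none was lower. ANGPTL4, a secreted inhibitor of lipoprotein lipase that responds to fatty acids and to low oxygen, rose from 42.9 ± 9.28 to 226.1 ± 112 (SD, n = 3 each, difference 2.13, standard error 0.33, adjusted p = 0.00513 by limma). PPARA, the nuclear receptor that drives genes of fatty acid oxidation, rose from 35.6 ± 4.99 to 79.2 ± 25.4 (difference 0.97, adjusted p = 0.0381 by limma). AGPAT5, SLC27A1, ACOT7, HADH and ANGPTL4 passed without each single array in turn. The call of HSD17B11 ended without spheroid 3 and that of SPART without monolayer 2 (adjusted p = 0.0527 and 0.0704 by limma). Those of ACAD9 ended without monolayer 2 or 3 (adjusted p = 0.0824 and 0.0762), and of HILPDA without monolayer 2, monolayer 3 or spheroid 2 (adjusted p = 0.0838, 0.0545 and 0.0864). HACL1, ABHD5, ABCD3, SOAT2, PPARA and PNPLA3 lost theirs without at least 4 single arrays each (adjusted p from 0.0502 to 0.142 by limma).

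**Figure D4:**
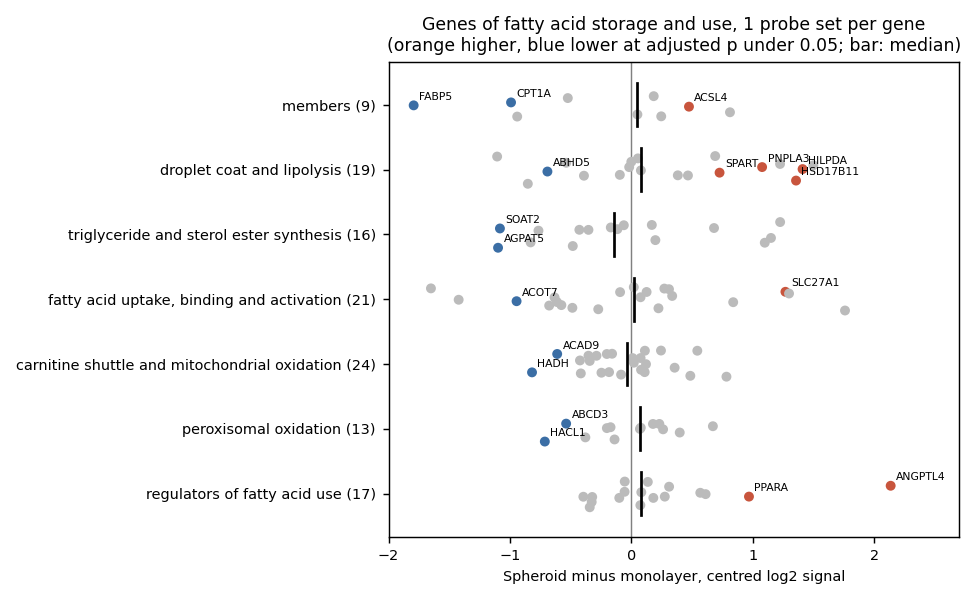
Difference of centred log2 signal, spheroid minus monolayer, of the 9 genes and of the genes in 6 wider lists, each gene read by its brightest probe set, with the number of genes in parentheses. Orange and blue points passed at an adjusted p under 0.05, grey points did not, and bars are medians, which all lie between -0.14 and 0.08.

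CD36 is also a gene of macrophages, endothelium, platelets and fat cells, so markers of those cells were read as well. Of 10 macrophage and leukocyte markers and 8 endothelial markers limma called 0 and 0 (3 and 1 at an unadjusted p under 0.05, and 0 and 0 by the methods' t-test with adjustment). Of all genes 3.89% were called higher and 9.2% lower, and 0 calls in lists this small cannot be told from those shares. The summed signal of the leukocyte list ran from 141 to 173 in monolayers and from 198 to 250.4 in spheroids, and that of the endothelial list from 245 to 487 and from 181 to 237. The 487 was that of monolayer 1, where KDR gave 422 against 13.6 and 8.35 on the other monolayers. Of the 8 endothelial markers 5 had positive differences, with a median of 0.16, and VWF, the one at an unadjusted p under 0.05, gave 3.89, 2.96 and 2.66 on the monolayer arrays and 21.4, 5.41 and 23.6 on the spheroid arrays and did not pass (adjusted p = 0.115 by limma). In the leukocyte list 7 differences were positive and 3 negative, those of CD163, ITGAM and AIF1, with a median of 0.54. PTPRC, the pan-leukocyte marker, averaged 3.92 ± 2.60 on monolayer arrays and 13.1 ± 0.877 on spheroid arrays (SD, n = 3 each, difference 1.83). The other leukocyte markers at an unadjusted p under 0.05 were CD14 (difference 0.99) and MRC1 (difference 1.60). All 3 were higher in spheroids without overlap of the groups, and none passed (adjusted p from 0.106 to 0.119 by limma). The brightest markers were ITGAM (81.5 ± 20.3 and 86.5 ± 23.6) and TIE1 (143 ± 107 and 117 ± 51.4), in monolayers and spheroids in that order. Of 10 adipocyte and platelet markers, 4 of which are also in the droplet list, 1 was higher (10%, against 3.89% of all genes). It was the platelet integrin ITGA2B (7.22 ± 2.53 and 26.3 ± 4.18, difference 1.77). Of the 10 differences 8 were positive and 2 negative, those of LEP and PF4 (-0.73). LEP had the largest difference of the list, -2.85, without overlap of the groups, and did not pass (adjusted p = 0.0881 by limma). All its spheroid signals were under the 20th percentile. The summed signal of the 10 markers ran from 95.6 to 108 in monolayers and from 146 to 168 in spheroids. The brightest of that list was the droplet protein CIDEC, at 46.7 ± 5.09 and 74.2 ± 26.7. The part of these signals in the CD36 difference was not tested.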

How the data were processed

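Expression was measured in 3 monolayer and 3 spheroid cultures, 1 array each, grouped by the sample titles. Per the labels and the methods, the authors computed MAS5 signal intensities per probe set, and the deposited values are linear and scaled to a common trimmed mean. A median normalization named in the methods is not visible in them. Of 54675 probe sets, 62 controls were left out. Symbols came from the platform annotation (41097 probe sets with 1 symbol, 1801 with several, 11777 with none), updated through RefSeq. Log2 signals, with no pseudocount, floor or filter, were centred on array medians and compared with limma 3.58.1 (R 4.3.3, eBayes with a mean-variance trend), with Benjamini-Hochberg adjustment over all tested probe sets. The p values of the ACTB and GAPDH ratios are from exact permutation tests, and those given for the methods' t-test are from that test. Genes named are all members, up to 4 called genes per list, taken by adjusted p, and PNPLA3, which was chosen after its value was seen. CPT2 and the marker examples were also chosen so. The members and lists were chosen with earlier results of these data known. Alternatives were quantile normalization, uncentred values, dim signals raised to the 20th percentile, the brighter probe sets alone, no trend, the methods' t-test, a replicate block, each array left out, and gene medians. The steps were tested on simulated data with changes planted only in probe sets above the median level, so the test does not cover dim probe sets. Arrays were 3 per group, which limits the precision, and detection calls and raw scans were not analysed here.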

Additional observations from a re-analysis of the deposited data

How the results depend on the processing

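The 5 member calls were the same under the values as deposited and quantile normalization, and 4 remained under the floor. With genes read as the median over their probe sets 2 member genes were called, FABP5 and ACSL4, the latter in the opposite direction to its brightest probe set (-1.64 against 0.47). The number of called probe sets, 5144 over all, 5 of the members, 3 member genes and 15 pathway genes, was 453, 1, 0 and 0 in limma without the trend (3 member genes at an unadjusted p under 0.05), and 1239, 1, 0 and 3 in the methods' t-test with adjustment (3 member genes without it). Without adjustment the t-test gave 10727 over all. Leaving out 1 array gave 2435 (without monolayer 2) to 6578 (without monolayer 1) over all, 1 (without monolayer 3 or spheroid 3) to 3 member probe sets, 1 to 2 member genes and 7 (without monolayer 2 or 3) to 18 pathway genes, and the cause was not tested. Fewer arrays enter each of these fits.

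Differences that changed sign were all of probe sets that were not called. On the values as deposited PLIN2 209122_at was 0.0795 and CD36 206488_s_at 0.0425. Without 1 array PLIN2 209122_at ran from -0.24 to 0.11, CD36 242197_x_at from -1.73 to 0.41, CD36 206488_s_at from -0.324 to 0.0117, ACSL1 207275_s_at from -0.0509 to 0.305, DGAT1 from -0.10 to 0.30 and DGAT2 224327_s_at from -0.923 to 0.0635.

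Whether the replicate numbers pair the arrays was not settled. Over all probe sets the deviations of same-numbered arrays correlated by 0.09, -0.01 and 0.02. Such a correlation cannot exclude a pairing that shows at few genes. At KRT5 both arrays numbered 1 were the highest of their group (1845 in monolayers and 910.5 in spheroids). With the replicate block 6134 probe sets, 4 member probe sets, 2 member genes and 18 pathway genes were called, and ACSL4 202422_s_at was the member that lost its call. With 3 arrays per group and unknown background, differences of dim probe sets, CD36 first among them, are the least certain.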
